A study of Homo sapiens with 24 samples.

Results

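The transcripts described here encode the factors that start and carry out protein synthesis and the enzymes that charge transfer RNA (tRNA). They are the genes whose symbol starts with EIF or EEF followed by a digit, or is 1 letter followed by ARS1 or ARS2, or EPRS1, and that hold at least 1 m6A peak in any of 4 deposited peak lists. By this rule 85 genes were found among the 9560 genes with a peak in any list. Of 105 protein-coding genes with a fitting symbol in the RefSeq gene table, 84 held a peak and 21 did not. The remaining gene, EEF1E1-BLOC1S5, is a noncoding readthrough of 2 neighbouring genes. The 21 without a peak included the eIF3 subunits EIF3D, EIF3E, EIF3F, EIF3G and EIF3K, the eIF4E inhibitor EIF4EBP1, EIF4H, EIF6, the elongation factor subunit EEF1D and the mitochondrial synthetase RARS2.

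The methylated adenosine of messenger RNA called N6-methyladenosine (m6A) was mapped by immunoprecipitation (IP) with an antibody followed by sequencing, in U2OS cells, a human osteosarcoma line. The 4 conditions were METTL3 KO plus UV, METTL3 KO minus UV, WT plus UV and WT minus UV, where METTL3 is the enzyme that writes most m6A in messenger RNA. All cells were grown with 10 µM BrdU, a thymidine analogue, before UVC at a dose of 50 J or no UVC, and poly(A) RNA was prepared from cells lysed 2 min later. IP libraries numbered 2 for KO plus UV, 3 for KO minus UV, 4 for WT plus UV and 3 for WT minus UV, each with an input, and the labels do not say whether the KO cells were 1 clone. Each condition has 1 deposited list over all of its libraries, giving the start and end of each peak in bases along a RefSeq transcript and no score, read count or depth. There are therefore no replicate values, the spread between libraries is unknown, and no test between conditions was made. A list records that a peak was called and not how much RNA or methylation was present, so less of a transcript, less methylation and fewer reads cannot be told apart. For the same reason the knockout and the cell type could not be checked by level. Over all transcripts, the KO minus UV list held 13852 peaks and the WT minus UV list 13989. Of the osteoblast markers, 4 of 8 held a peak in a list, against 2 of 5 epithelial, 1 of 4 neuronal and 0 of 5 blood markers.

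Translation begins when the small ribosomal subunit, carrying eIF1, eIF1A, eIF3 and the ternary complex of eIF2, GTP and initiator tRNA, is recruited to the cap by eIF4F and scans to a start codon. Kinases that phosphorylate eIF2 turn eIF2 into an inhibitor of its own exchange factor eIF2B, which lowers initiation in general during stress. Elongation needs eEF1A to bring aminoacyl-tRNA to the ribosome and eEF2 to move the ribosome along, and aminoacyl-tRNA synthetases supply the charged tRNA. Cytosolic synthetases carry the suffix 1 and mitochondrial ones the suffix 2, while GARS1 and KARS1 serve both compartments.

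Most of these transcripts held a peak whatever the condition. A peak was present on 63 of the 85 in KO plus UV (74.1%), 73 in KO minus UV (85.9%), 74 in WT plus UV (87.1%) and 70 in WT minus UV (82.4%). Over all 9560 genes the shares were 57.7% in KO plus UV, 72.9% in KO minus UV, 83.4% in WT plus UV and 74.6% in WT minus UV. The 85 genes carried 113 peaks in KO plus UV, 127 in KO minus UV, 126 in WT plus UV and 118 in WT minus UV. Peaks per gene with a peak averaged 1.79 in KO plus UV, 1.74 in KO minus UV, 1.70 in WT plus UV and 1.69 in WT minus UV. Over all genes these averages were 1.70 in KO plus UV, 1.97 in KO minus UV, 1.92 in WT plus UV and 1.94 in WT minus UV. A peak in every list was found on 47 of the 85 (55.3%), against 41.2% of all genes. With only peaks of at least 150 bases kept, it was 29 of the 85, against 30.9% of all genes. With peaks of every width, the share was highest among the eIF5 factors, with 3 of 3, and then among the cytosolic synthetases, with 16 of 18. It was lowest among the enzymes that modify elongation factors, with 0 of 3, and among the elongation factors and the readthrough gene, with 1 of 7. The high shares rested in part on narrow peaks. With only peaks of at least 150 bases kept, EIF5A, EIF5B and some cytosolic synthetases, KARS1 and RARS1 among them, no longer held a peak in every list.

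**Figure D1:**
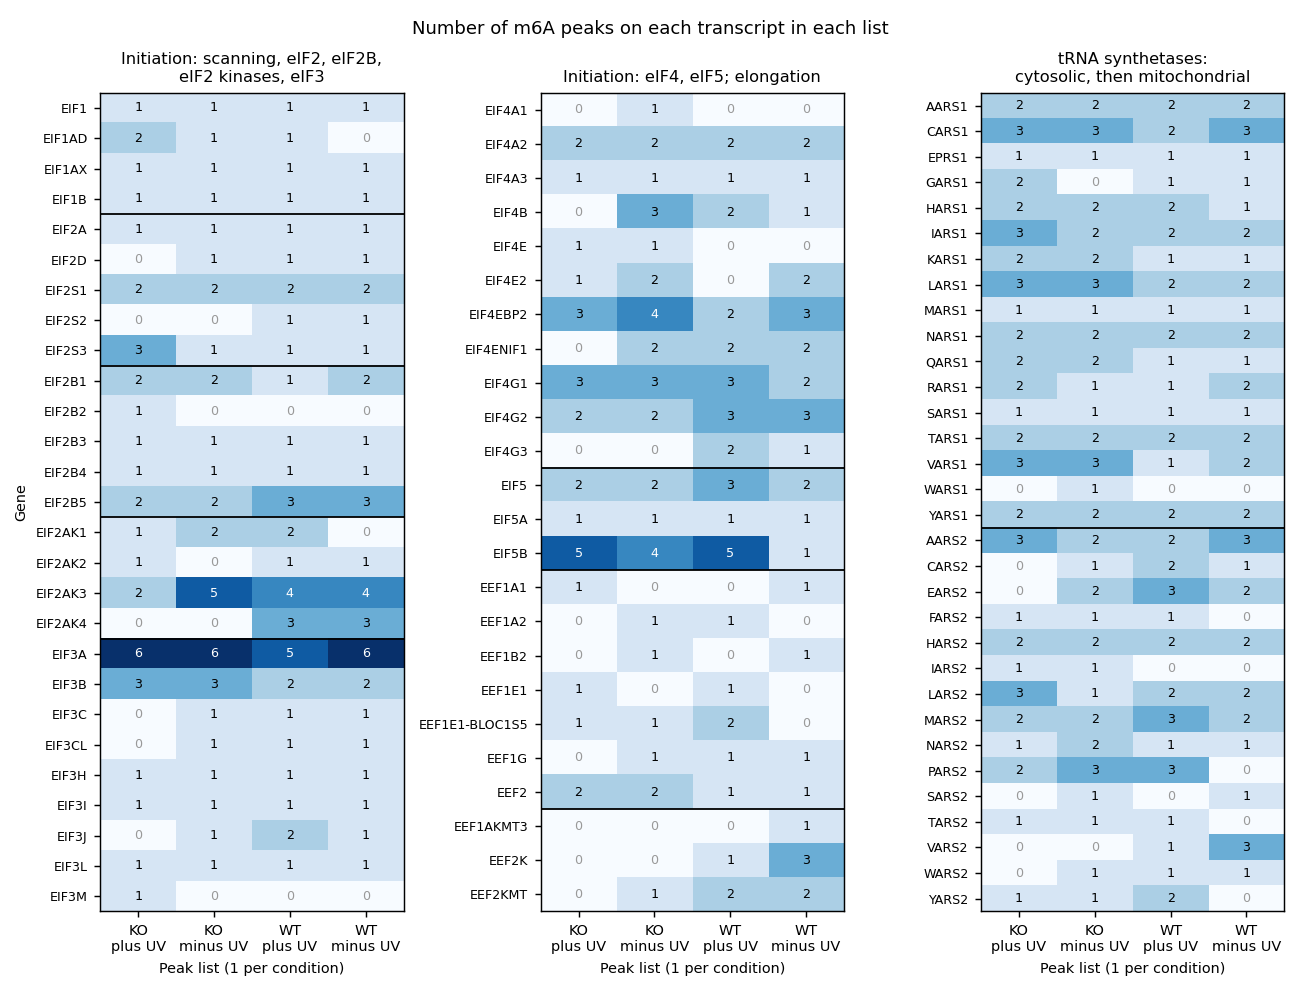
Number of m6A peaks on each transcript reported by name here (rows, grouped by role with black lines between roles) in each peak list (columns); a darker cell holds more peaks, and 0 is printed in grey. EIF3A carried the most peaks, 5 or 6 in each list, and the KO plus UV column, whose list rests on 2 IP libraries, holds the most zeros.

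Setting irradiated WT cells beside unirradiated ones asked whether peaks appear on these transcripts within minutes of irradiation. Of the 85, 9 held a peak in WT plus UV and none in WT minus UV (10.6%), against 17.4% of all genes. A peak in WT minus UV and none in WT plus UV was found on 5 (5.88%), against 8.61% of all genes. The 9 were EEF1A2, EEF1E1, EEF1E1-BLOC1S5, EIF1AD, EIF2AK1 and the mitochondrial synthetases FARS2, PARS2, TARS2 and YARS2, and the 5 were EEF1A1, EEF1AKMT3, EEF1B2, EIF4E2 and SARS2. In WT plus UV, 27 of 126 peaks (21.4%, 95% Wilson interval 15.2 to 29.4, for counting error alone as for every interval below) lay clear of every WT minus UV peak, against 30% over all transcripts. In WT minus UV, 21 of 118 peaks (17.8%, 11.9 to 25.7) lay clear of every WT plus UV peak, against 22.4% over all transcripts.

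The same question was asked in the cells labelled METTL3 KO. There, 6 of the 85 held a peak with UV and none without it (7.06%, against 8.62% of all genes). These were EEF1A1, EEF1E1, EIF2AK2, EIF2B2, EIF3M and GARS1. Another 16 held a peak without UV and none with it (18.8%, against 23.8% of all genes). They included EIF3C, EIF3CL and EIF3J of eIF3, EIF4A1, EIF4B and EIF4ENIF1 of the eIF4 group, and CARS2, EARS2, SARS2 and WARS2 of the mitochondrial synthetases. In KO plus UV, 19 of 113 peaks (16.8%, 11 to 24.8) lay clear of every KO minus UV peak, against 22.6% over all transcripts. In KO minus UV, 32 of 127 peaks (25.2%, 18.5 to 33.4) lay clear of every KO plus UV peak, against 47.0% over all transcripts.

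Without UV, the genotypes were compared to see which peaks were called in KO or in WT cells alone, from lists of 3 IP libraries each. A peak in KO and none in WT was found on 12 of the 85 (14.1%, against 14.7% of all genes), and a peak in WT and none in KO on 9 (10.6%, against 16.4%). The 9 became 15 with only peaks of at least 150 bases kept, against 16.0% of all genes, and 5 of 74 with regulators and the readthrough gene left out. The 12 included EIF4A1, EIF4E, EIF2AK1, WARS1 and the mitochondrial FARS2, IARS2, PARS2, TARS2 and YARS2. The 9 were EEF1A1, EEF1AKMT3, EEF2K, EIF2AK2, EIF2AK4, EIF2S2, EIF4G3, GARS1 and VARS2. In KO minus UV, 33 of 127 peaks (26.0%, 19.1 to 34.2) lay clear of every WT minus UV peak, against 31.1% over all transcripts. In WT minus UV, 25 of 118 peaks (21.2%, 14.8 to 29.4) lay clear of every KO minus UV peak, against 32.1%.

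With UV, 6 of the 85 held a peak in KO and none in WT (7.06%, against 5.68% of all genes), and 17 held a peak in WT and none in KO (20%, against 31.4%). The 6 were EEF1A1, EIF2B2, EIF3M, EIF4E, EIF4E2 and IARS2. In KO plus UV, 25 of 113 peaks (22.1%, 15.5 to 30.6) lay clear of every WT plus UV peak, against 19.3% over all transcripts. In WT plus UV, 38 of 126 peaks (30.2%, 22.8 to 38.7) lay clear of every KO plus UV peak, against 51.0%. The KO list rested on 2 IP libraries and the WT list on 4, and the part of this difference in these counts was not tested.

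**Figure D2:**
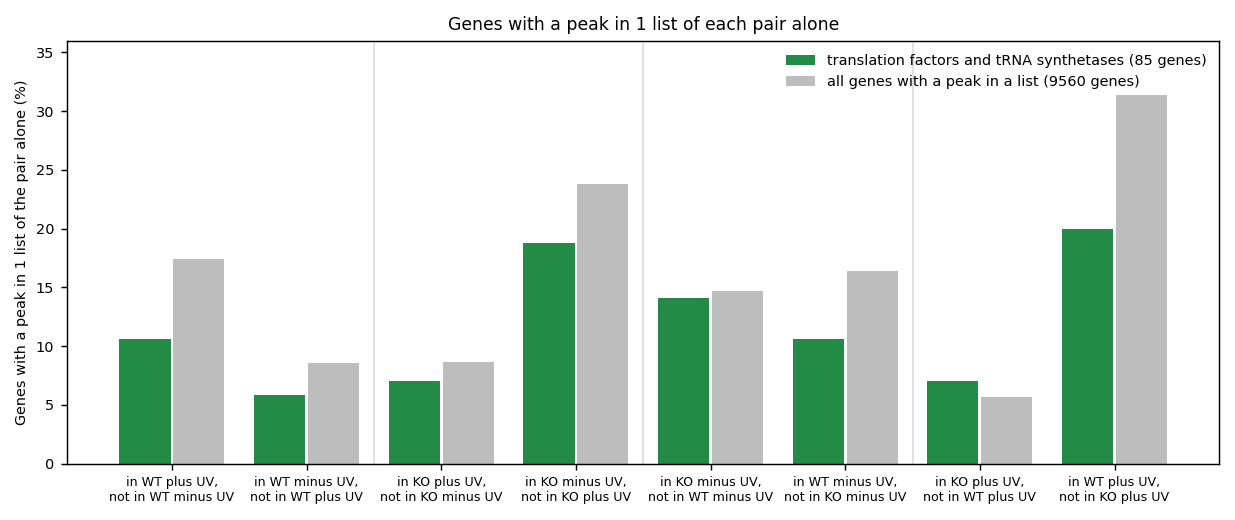
Percent of genes with a peak in 1 list of each pair and none in the other (vertical axis), for the translation factors and tRNA synthetases (green) and for all genes with a peak in a list (grey). The green bar is the shorter one in 7 of the 8 cases. The exception is genes with a peak in KO plus UV and not in WT plus UV (7.06% against 5.68%). This tally depends on peak width. With only peaks of at least 150 bases kept, the green share is also larger for KO plus UV and not KO minus UV (8 of 85 against 8.13%). The same holds for KO minus UV and not WT minus UV (14 of 85 against 14.4%) and for the reverse (15 of 85 against 16.0%). It stays smaller for both WT bars, for KO minus UV and not KO plus UV, and for WT plus UV and not KO plus UV.

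Among the scanning factors, EIF1, which guards start codon selection, carried 1 peak in each list, at bases 11 to 175 in KO plus UV, 5 to 175 in KO minus UV, 4 to 175 in WT plus UV and 11 to 176 in WT minus UV. Its paralogue EIF1B and EIF1AX, which encodes the partner factor eIF1A, likewise carried 1 peak in each list, all within the first 358 bases. EIF1AD, an eIF1A-related protein, carried 2 peaks in KO plus UV, 1 in KO minus UV, 1 in WT plus UV and 0 in WT minus UV. The KO minus UV peak of EIF1AD, at bases 981 to 1120, overlapped none of the others.

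The 3 subunits of eIF2 differed from each other. EIF2S1 encodes the alpha subunit, which carries the serine that the eIF2 kinases phosphorylate. It (chromosome 14, 67360328 to 67386516, GRCh38.p14 as for all gene coordinates here) held 2 peaks in every list, one that began at base 1 and ended at base 149 or 150, and one between bases 896 and 1074. EIF2S2, the beta subunit, held 0 peaks in each KO list and 1 peak in each WT list, at bases 25 to 160 in WT plus UV and 30 to 240 in WT minus UV. EIF2S3, the gamma subunit that binds GTP and initiator tRNA, held 3 peaks in KO plus UV and 1 in each of the other lists. A peak between bases 2031 and 2210 was present in all of them, and the additional KO plus UV peaks lay at bases 981 to 1113 and 1301 to 1410. EIF2A, which can deliver initiator tRNA outside the eIF2 route, held 1 peak in every list, and EIF2D held 1 in each list except KO plus UV, where it held 0.

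The exchange factor eIF2B was covered more evenly. EIF2B1, EIF2B3, EIF2B4 and EIF2B5, which encode its alpha, gamma, delta and epsilon subunits, held a peak in every list. EIF2B1 held 2 peaks in KO plus UV, 2 in KO minus UV, 1 in WT plus UV and 2 in WT minus UV, and EIF2B3 and EIF2B4 held 1 in every list. EIF2B5, the catalytic subunit, carried 2 peaks in KO plus UV, 2 in KO minus UV, 3 in WT plus UV and 3 in WT minus UV. The peak absent from both KO lists lay at bases 2495 to 2710 in WT plus UV and 2521 to 2708 in WT minus UV. EIF2B2, the beta subunit, had a peak in KO plus UV alone, as did EIF3M among the 85 and 1.75% of all genes. That peak covered bases 1 to 100, and 100 bases was the smallest width in the lists.

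The 4 kinases that phosphorylate eIF2 under stress had 4 different patterns. EIF2AK4 encodes GCN2, which senses uncharged tRNA and is known to respond to UV light (chromosome 15, 39934115 to 40035591). It held 0 peaks in KO plus UV, 0 in KO minus UV, 3 in WT plus UV and 3 in WT minus UV. The WT peaks overlapped each other throughout: bases 476 to 670 with UV and 478 to 670 without it, 1331 to 1480 and 1421 to 1520, and 1996 to 2291 and 1994 to 2276. EIF2AK3 encodes PERK, the kinase of the endoplasmic reticulum stress response (chromosome 2, 88556741 to 88628145). It held 2 peaks in KO plus UV, 5 in KO minus UV, 4 in WT plus UV and 4 in WT minus UV. A peak that began between bases 2482 and 2491 ended at base 2648 or 2649 in every list, whereas the peak near the transcript start, between bases 61 and 260, was missing from KO plus UV alone. EIF2AK1 encodes HRI, the heme-regulated kinase. It held 1 peak in KO plus UV, 2 in KO minus UV, 2 in WT plus UV and 0 in WT minus UV. EIF2AK2 encodes PKR, which is activated by double-stranded RNA, and held 1 peak in KO plus UV, 0 in KO minus UV, 1 in WT plus UV and 1 in WT minus UV. These 3 PKR peaks lay apart, at bases 1201 to 1370 in KO plus UV, 1 to 132 in WT plus UV and 362 to 480 in WT minus UV, so no region of EIF2AK2 was called more than once.

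**Figure D3:**
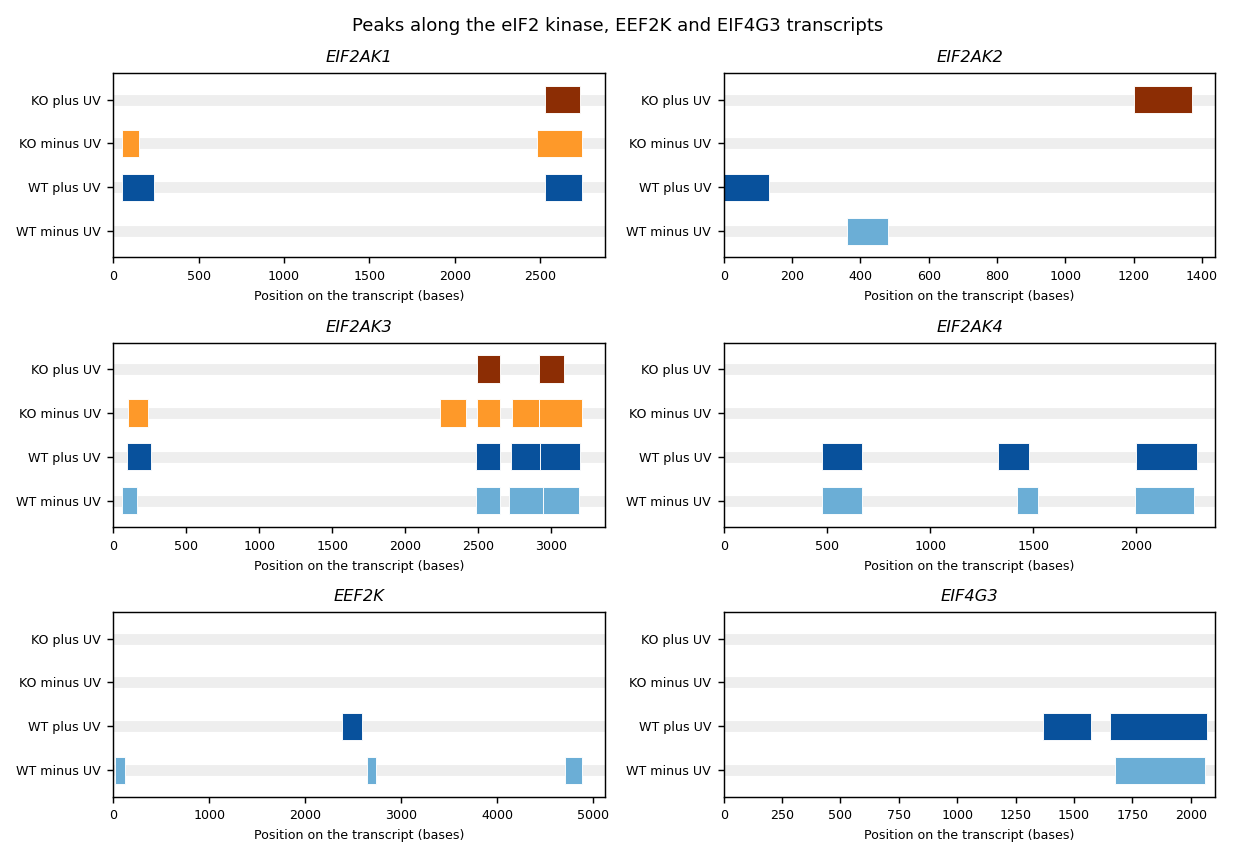
Peaks (coloured bars) along the transcripts of the 4 eIF2 kinases, of EEF2K and of EIF4G3, by position in bases from the transcript start (horizontal axis, ending near the last peak), with 1 row for each list. EIF2AK4, EEF2K and EIF4G3 hold peaks in the WT rows alone, and the 3 EIF2AK2 peaks do not overlap.

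Of the eIF3 complex, which holds the scanning ribosome together, 9 of 14 annotated genes held a peak. EIF3A encodes its largest subunit (chromosome 10, 119033670 to 119080817) and had the greatest total peak length of the 85 genes, 4868 bases summed over the lists. It carried 6 peaks in KO plus UV, 6 in KO minus UV, 5 in WT plus UV and 6 in WT minus UV. The region absent from WT plus UV lay at bases 3671 to 3890 in KO plus UV, 3641 to 3899 in KO minus UV and 3641 to 3960 in WT minus UV. EIF3B, a scaffold subunit, held 3 peaks in KO plus UV, 3 in KO minus UV, 2 in WT plus UV and 2 in WT minus UV, the additional KO peak lying at bases 2341 to 2440 with UV and 2311 to 2460 without it. EIF3H, EIF3I and EIF3L held 1 peak in every list. EIF3C and EIF3CL are near-identical copies, and their peaks differed in position by 212 bases at both ends in each list that held them. Reads of the copies cannot be told apart, and the pair was present in KO minus UV, WT plus UV and WT minus UV and absent from KO plus UV. EIF3J, a loosely bound subunit, was also absent from KO plus UV, and EIF3M was present there alone, at bases 36 to 190.

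The eIF4 group includes the cap-binding complex eIF4F, made of eIF4E, eIF4G and eIF4A. EIF4E (chromosome 4, 98879276 to 98929133), which binds the cap, held 1 peak in KO plus UV at bases 1483 to 1640, 1 in KO minus UV at 1483 to 1610 and 0 in each WT list. This presence in KO alone, with and without UV, was that of 2.00% of all genes, and EIF4E and the mitochondrial IARS2 were the 2 among the 85. EIF4G1, the main scaffold (chromosome 3, 184314606 to 184335358), held 3 peaks in KO plus UV, 3 in KO minus UV, 3 in WT plus UV and 2 in WT minus UV. EIF4G2, a scaffold that lacks the eIF4E binding site, held 2 in each KO list and 3 in each WT list, and its peak at bases 411 to 530 was confined to WT. EIF4G3, a paralogue of EIF4G1 (chromosome 1, 20806292 to 21176897), held 0 peaks in each KO list, 2 in WT plus UV and 1 in WT minus UV. The EIF4G3 peak shared by the WT lists covered bases 1655 to 2070 with UV and 1675 to 2060 without it.

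The helicase genes of this group differed as well. EIF4A2 held 2 peaks in every list, within bases 1077 to 1243 and 1335 to 1493. EIF4A3, the paralogue that marks exon junctions, held 1 peak in every list. EIF4A1 had 1 peak in KO minus UV, at bases 81 to 180, and in no other list, as did WARS1 among the 85 and 4.24% of all genes. EIF4B, which stimulates the helicase, held 0 peaks in KO plus UV, 3 in KO minus UV, 2 in WT plus UV and 1 in WT minus UV. Among the regulators of eIF4E, EIF4EBP2, which sequesters eIF4E until mTOR phosphorylates it, held 3 peaks in KO plus UV, 4 in KO minus UV, 2 in WT plus UV and 3 in WT minus UV. A long stretch of EIF4EBP2 was marked further downstream in the KO lists, where another peak adjoined the first one, at bases 434 to 798 with UV and 410 to 791 without it. The first peak ended at base 418 in WT plus UV and 415 in WT minus UV, and no WT peak lay between these bases and 1781. EIF4E2, a cap-binding repressor, held 1 peak in KO plus UV, 2 in KO minus UV, 0 in WT plus UV and 2 in WT minus UV. EIF4ENIF1, the eIF4E transporter, held 0 peaks in KO plus UV and 2 in each of the other lists.

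EIF5, which triggers GTP hydrolysis by eIF2, held peaks within bases 221 to 396 and 1074 to 1291 in every list, and 1 more in WT plus UV, at bases 1789 to 1910. EIF5A, which relieves stalled ribosomes, held 1 peak in every list. EIF5B, which joins the ribosomal subunits (chromosome 2, 99337389 to 99401326), held 5 peaks in KO plus UV, 4 in KO minus UV, 5 in WT plus UV and 1 in WT minus UV. With peaks of every width, it was the gene among the 85 whose peak number in WT minus UV lay furthest below that in the other lists. The WT minus UV peak at bases 547 to 710 overlapped a peak in each of the other lists. Regions within bases 20 to 200, 1044 to 1380 and 1747 to 1930 were called in the other 3 lists and not in WT minus UV. This pattern depends on peak width. The KO minus UV peaks of EIF5B were 111, 149, 137 and 101 bases wide, and the WT minus UV peak 164 bases. With only peaks of at least 150 bases kept, EIF5B thus held no peak in KO minus UV and kept its peak in WT minus UV.

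Elongation factor transcripts carried few peaks, and few of them recurred in every list. EEF2, the translocase (chromosome 19, 3976056 to 3985463), was the 1 gene of this group with a peak in every list, within bases 2591 to 2831. It held an additional peak in the KO lists alone, at bases 1111 to 1220 with UV and 1111 to 1210 without it. EEF1A1, the main eEF1A gene, held the same 100-base peak at bases 1421 to 1520 in KO plus UV and WT minus UV, and 0 peaks in KO minus UV and WT plus UV. EEF1A2, the isoform of muscle and neurons, held the opposite set, with 0 peaks in KO plus UV and WT minus UV and 1 peak in KO minus UV, at bases 531 to 800, and in WT plus UV, at 651 to 820. Similar genes can share reads, and how such reads were counted is unknown here. EEF1G and EEF1B2 encode subunits of the exchange factor for eEF1A. EEF1G held 0 peaks in KO plus UV and 1 in each of the other lists, and EEF1B2 held 0 peaks in KO plus UV, 1 in KO minus UV, 0 in WT plus UV and 1 in WT minus UV.

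EEF1E1 (chromosome 6, 8073360 to 8102548), a small protein of the multi-synthetase complex also called AIMP3, was the 1 gene of the 85 with a peak in both UV lists and in no list without UV. The peak covered bases 24 to 210 in KO plus UV and 32 to 170 in WT plus UV. Genes of this pattern made up 1.97% of all genes, a share that 1 of 85 does not exceed. EEF1B2 and the mitochondrial SARS2 were the 2 with the reverse pattern, a peak in both lists without UV and in no UV list, which 2.27% of all genes had. The readthrough transcript EEF1E1-BLOC1S5 shares sequence with both of its parent genes. Its peaks of 196 bases in KO minus UV and 218 bases in WT plus UV matched the widths of peaks on BLOC1S5, so these cannot be assigned to the readthrough. The KO plus UV peak of 187 bases lay in the same region of the readthrough, bases 732 to 957. BLOC1S5 held a peak of 211 bases in KO plus UV, so the 187-base peak cannot be assigned either.

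Of the 3 enzymes that modify elongation factors, 0 held a peak in KO plus UV, 1 in KO minus UV, 2 in WT plus UV and 3 in WT minus UV. EEF2K, the kinase that inhibits eEF2 (chromosome 16, 22206278 to 22288738), held 0 peaks in KO plus UV, 0 in KO minus UV, 1 in WT plus UV and 3 in WT minus UV. The WT plus UV peak, at bases 2387 to 2594, overlapped none of the WT minus UV peaks, which lay at 18 to 120, 2641 to 2740 and 4711 to 4878. EEF2KMT, a methyltransferase that acts on eEF2, held 0 peaks in KO plus UV, 1 in KO minus UV, 2 in WT plus UV and 2 in WT minus UV. EEF1AKMT3, which methylates eEF1A, had 1 peak in WT minus UV and in no other list, as did 4.40% of all genes. None of the 85 was marked solely in WT plus UV, the pattern of 6.97% of all genes, and EEF1AKMT3 was the 1 gene with a peak in WT minus UV alone.

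All 18 cytosolic synthetase genes of the annotation held a peak in a list, and 16 held one in every list (88.9%, against 41.2% of all genes). The 8 synthetases of the multi-synthetase complex, among them EPRS1, KARS1, LARS1 and RARS1, all belonged to these 16, as did 8 of the other 10. This comparison depends on peak width. With only peaks of at least 150 bases kept, IARS1 of the complex still held one in every list. EPRS1, KARS1, LARS1, MARS1, QARS1 and RARS1 of the complex did not. Outside the complex AARS1, CARS1, HARS1, NARS1, TARS1, VARS1 and YARS1 still did, and SARS1 did not. EPRS1, the fused glutamyl- and prolyl-tRNA synthetase (chromosome 1, 219968600 to 220046505), carried 1 peak in each list, within bases 3066 to 3323. AARS1, the alanyl enzyme, held 2 peaks in every list, with a total length of 2135 bases summed over the lists. CARS1, the cysteinyl enzyme, held 3 peaks in KO plus UV, 3 in KO minus UV, 2 in WT plus UV and 3 in WT minus UV, and a CARS1 peak that began at base 2451 ended at base 2662 or 2663 in every list. NARS1, the asparaginyl enzyme, carried 2 peaks in each list, at bases 136 to 303 and 356 to 652, with starts within 4 bases and ends within 8 bases of each other. The exceptions were GARS1 and WARS1. GARS1 held 2 peaks in KO plus UV, 0 in KO minus UV, 1 in WT plus UV and 1 in WT minus UV, and WARS1, an interferon-inducible gene, held 1 peak in KO minus UV alone, at bases 1321 to 1430.

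Cytosolic synthetase peaks numbered 34 in KO plus UV, 31 in KO minus UV, 25 in WT plus UV and 27 in WT minus UV. Over all transcripts the lists held 9471 peaks in KO plus UV, 13852 in KO minus UV, 15465 in WT plus UV and 13989 in WT minus UV. The shortest list, KO plus UV, thus held the most cytosolic synthetase peaks, but this order depends on peak width. Among cytosolic synthetase peaks of at least 150 bases, WT plus UV held the most. Regions called in KO with and without UV, and not in WT, lay on KARS1 (bases 511 to 650 with UV and 541 to 703 without), LARS1 (541 to 675 and 521 to 663), QARS1 (1621 to 1783 and 1591 to 1782) and VARS1 (4161 to 4266 and 4141 to 4257). The transcripts of VARS1 and of the mitochondrial VARS2, both on chromosome 6, carry a copy number in the lists. HARS1 held a region at bases 366 to 552 that was called in every list but WT minus UV. Each of the 16 genes with a peak in every list had between 1 and 3 peaks in each list.

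Of the 16 mitochondrial synthetases, 6 held a peak in every list (37.5%, against 41.2% of all genes). AARS2, HARS2, LARS2, MARS2 and NARS2 were among these, and HARS2 held 2 peaks in each list at nearly the same bases. AARS2, the alanyl enzyme, had the greatest total peak length of this class, 2504 bases summed over the lists, with 3 peaks in KO plus UV, 2 in KO minus UV, 2 in WT plus UV and 3 in WT minus UV. MARS2, the methionyl enzyme, held 2 peaks in KO plus UV, 2 in KO minus UV, 3 in WT plus UV and 2 in WT minus UV. LARS2, the leucyl enzyme, held 3 in KO plus UV, 1 in KO minus UV, 2 in WT plus UV and 2 in WT minus UV, and its first peak ended at base 3368 or 3369 in every list. FARS2, PARS2, TARS2 and YARS2 were missing from WT minus UV alone, a pattern that 7 of the 85 genes (8.24%) and 4.62% of all genes had. The 7 include EEF1E1-BLOC1S5, whose peaks within bases 732 to 957 cannot be assigned to it. They also include EIF1AD, whose KO minus UV peak overlapped none of its others. FARS2 and TARS2 held 1 peak in each list but WT minus UV, and YARS2 held 1 in each KO list and 2 in WT plus UV. PARS2, the prolyl enzyme, held 2 peaks in KO plus UV, 3 in KO minus UV, 3 in WT plus UV and 0 in WT minus UV. CARS2, EARS2 and WARS2 were missing from KO plus UV alone, a pattern of 11 of the 85 genes (12.9%) and of 13.5% of all genes. CARS2 held 1 peak in KO minus UV, 2 in WT plus UV and 1 in WT minus UV, and WARS2 held 1 in each of these lists. EARS2, the glutamyl enzyme, held 0 peaks in KO plus UV, 2 in KO minus UV, 3 in WT plus UV and 2 in WT minus UV. VARS2 held 0 peaks in each KO list, 1 in WT plus UV and 3 in WT minus UV, and IARS2 held 1 in each KO list and 0 in each WT list.

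Across all roles, 5 genes were marked in WT, with and without UV, and never in KO, namely EEF2K, EIF2AK4, EIF2S2, EIF4G3 and VARS2. They were 5.88% of the 85, against 7.12% of all genes. All the peaks of a gene were of the smallest width, 100 bases, for 5 of the 63 genes with a peak in KO plus UV (7.94%), 3 of 73 in KO minus UV (4.11%), 0 of 74 in WT plus UV and 2 of 70 in WT minus UV (2.86%). Over all genes with a peak these shares were 7.01% in KO plus UV, 3.95% in KO minus UV, 3.15% in WT plus UV and 4.64% in WT minus UV. Among these were EIF3H and EIF4E2 in KO plus UV, EIF2B4 and IARS2 in KO minus UV, and EIF3J in WT minus UV.

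When peaks of all lists that overlapped were joined, the 85 transcripts held 167 regions. Of these, 69 (41.3%) were called in every list, against 25.7% of all 20811 regions. Region counts were not repeated with only peaks of at least 150 bases kept, so how far they depend on peak width was not tested. Regions called solely in KO, with and without UV, numbered 8 (4.79%, against 2.53% of all regions) and those called solely in WT, with and without UV, 10 (5.99%, against 7.90%). Besides those on KARS1, LARS1, QARS1 and VARS1, the 8 KO regions were on EEF2, EIF3B, EIF4E and IARS2. Of these 8, the QARS1 region held a peak of at least 150 bases in both KO lists (163 bases with UV and 192 without). Each of the others held a narrower peak in at least 1 KO list. Regions in both UV lists alone numbered 4 (2.40%, against 1.98%), on EEF1E1, EIF1AD, EIF5B and YARS2, and regions in both lists without UV alone 4 (2.40%, against 3.70%), on EEF1B2, EIF4E2, EIF4EBP2 and SARS2. In the 64 regions with 1 peak in every list, the starts spread over a median of 17.0 bases and the ends over 13.5 bases, against 26.0 and 21.0 bases in 4483 such regions over all transcripts.

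**Figure D4:**
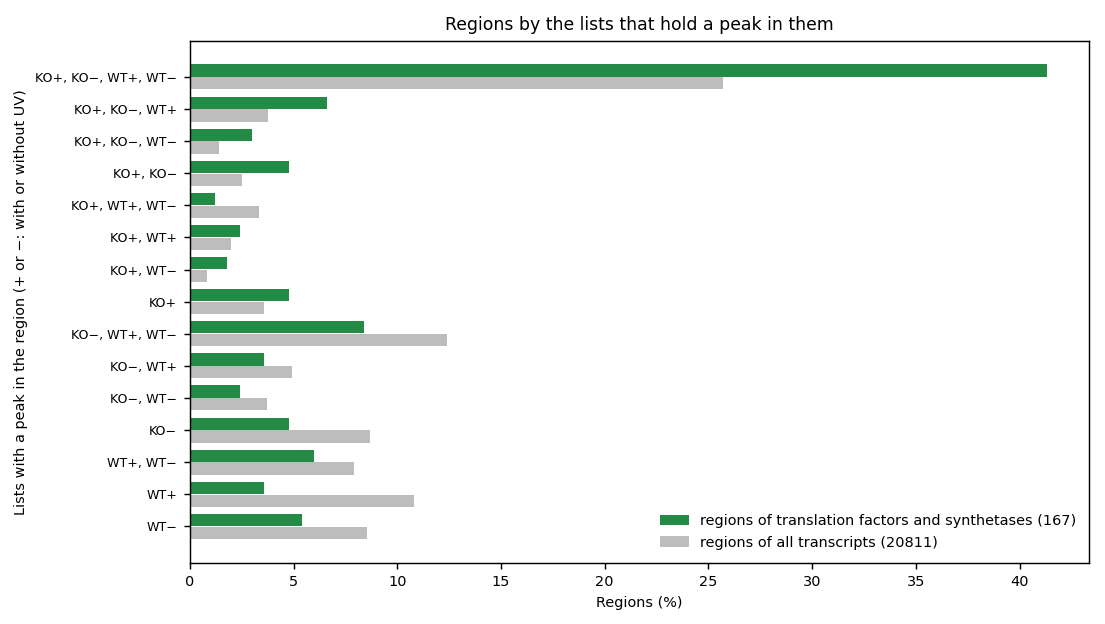
Percent of joined peak regions (horizontal axis) by the set of lists with a peak in the region (rows; KO+ stands for KO plus UV, KO− for KO minus UV, and likewise for WT), for the 167 regions of the translation factors and synthetases (green) and all 20811 regions (grey). Regions called in every list make up 41.3% of the green and 25.7% of the grey set, and the bars for WT plus UV alone are 3.59% and 10.8%. Peaks of every width are included, and how far these shares depend on peak width was not tested.

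On some of the transcripts a peak lay at the very start in every list. A peak beginning within the first 30 bases was found on 18 of the 85 genes in some list, and on AARS1, EIF1, EIF2S1, IARS1, KARS1 and RARS1 in every list. These peaks made up 12 of 113 in KO plus UV (10.6%, 6.18 to 17.6), 10 of 127 in KO minus UV (7.87%, 4.33 to 13.9), 10 of 126 in WT plus UV (7.94%, 4.37 to 14) and 9 of 118 in WT minus UV (7.63%, 4.06 to 13.9). Over all peaks the shares were 8.20% in KO plus UV, 7.31% in KO minus UV, 7.97% in WT plus UV and 6.88% in WT minus UV, which lie within these intervals. On AARS1, EIF2S1, KARS1 and RARS1 the peak began at base 1 in every list. A peak cannot begin further upstream than base 1, so this shared start is no measure of how constant a peak is. The KARS1 peak covered bases 1 to 113 in each of the 4 lists, and the RARS1 peak ended at base 140 in KO plus UV, 128 in KO minus UV, 132 in WT plus UV and 136 in WT minus UV. Peaks beginning at base 1 were 5.31% of those on the 85 genes in KO plus UV, 3.94% in KO minus UV, 3.97% in WT plus UV and 4.24% in WT minus UV. Over all peaks they were 4.10% in KO plus UV, 3.98% in KO minus UV, 4.13% in WT plus UV and 3.61% in WT minus UV.

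**Figure D5:**
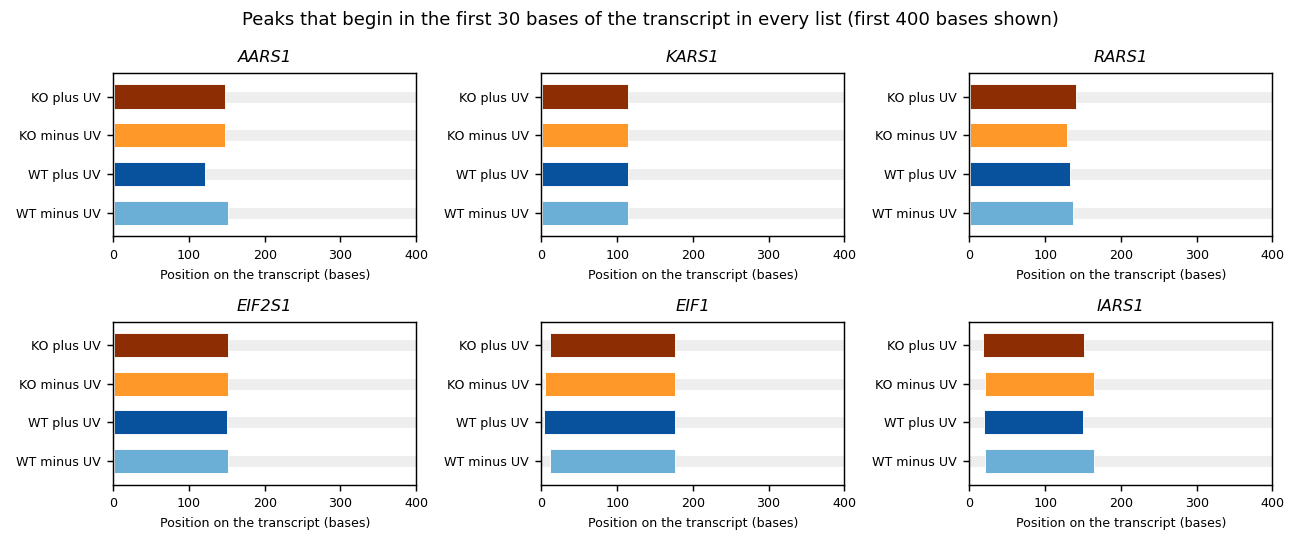
Peaks (bars) in the first part of the 6 transcripts with a peak that begins within the first 30 bases in every list, by position in bases from the transcript start (horizontal axis), with 1 row for each list. The 4 bars of KARS1 are identical, bases 1 to 113, and those of AARS1, EIF2S1 and RARS1 all begin at base 1.

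Antibodies against m6A are known to bind m6Am as well, a mark on the adenosine next to the cap that METTL3 does not place, and which mark a start peak holds was not tested. The 4 genes with a peak at base 1 in every list are shown for the letter at their annotated start. Each line runs from 10 bases before to 20 bases from the annotated gene start in RefSeq (GRCh38.p14), 5′ to 3′ on the strand of the gene, with the first transcribed base in capitals. AARS1 lies on the minus strand at chr16:70289487-70289516, KARS1 on the minus strand at chr16:75647646-75647675, RARS1 on the plus strand at chr5:168486461-168486490 and EIF2S1 on the plus strand at chr14:67360318-67360347.
AARS1: tgaggccggtAcagctgcgcgtctgcggga
KARS1: tatcctccttActtttgggtcgggccctcc
RARS1: gcttccgtccActtggcgagtgagacgctg
EIF2S1: gaggttccgcAtgcgcggtggagtgagcga
All 4 start with an A, whereas EIF1 and IARS1, the other genes with a start peak in every list, start with a G. An A was the first base of 7 of the 16 genes with an entry and a start peak in some list (43.8%) and of 28 of the 69 with an entry (40.6%). Over all genes with a peak at base 1 in every list, 54 of 106 (50.9%, 41.6 to 60.3) did so, against 44.7% (43.4 to 45.9) of genes with a peak but none near the start and 46.2% of all genes with a peak. For EIF3B, 1 of the 7, the start read was not at an end of the gene coordinates. The same was so for CARS2, EIF2AK3, EIF4ENIF1 and FARS2 among the 69.

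Many messenger RNAs of the translation machinery start instead with a C followed by a run of pyrimidines, the TOP motif through which mTOR is known to control their translation. The starts of EEF1A1 (minus strand, chr6:73521013-73521042), EEF2 (minus strand, chr19:3985444-3985473) and EIF4B (plus strand, chr12:53006446-53006475) are shown as examples, with the C and the pyrimidines after it in capitals.
EEF1A1: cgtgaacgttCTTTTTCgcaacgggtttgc
EEF2: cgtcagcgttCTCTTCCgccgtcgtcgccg
EIF4B: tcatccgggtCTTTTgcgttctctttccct
A C with at least 4 pyrimidines after it, read on the strand of the gene at the annotated start alone, was found in 9 of the 69 genes with an entry in the table (13.0%, 7.02 to 23.0), against 5.02% of all genes with a peak and 4.04% of all 27305 genes of the table. The others were EIF2A, EIF2D, EIF2S3, EIF3M, EIF4A2 and QARS1. Such a start was found in 0 of the 16 genes with a peak beginning within the first 30 bases in some list (an interval of 0.00 to 19.4%) and in 9 of the 53 without one (17.0%, 9.20 to 29.2), and these intervals overlap. Among all genes with a peak and none near the start the share was 5.56%, against 5.02% of all genes with a peak. The listed transcript need not start at the annotated gene start, and whether it does was not tested.

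Translation genes outside the symbol rule were counted from a list of 62. Of these, 50 held a peak in a list, and 28 of the 50 held one in every list (56.0%, against 41.2% of all genes). A peak was present on 38 in KO plus UV (76.0%, against 57.7%), 34 in KO minus UV (68.0%, against 72.9%), 45 in WT plus UV (90.0%, against 83.4%) and 43 in WT minus UV (86.0%, against 74.6%). Without UV, 2 of the 50 held a peak in KO alone (4%, against 14.7%) and 11 in WT alone (22.0%, against 16.4%), among the 11 PAIP1, PAIP2, the mitochondrial factors GFM1, MRRF and MTFMT, and GSPT2. In the stress branch downstream of the eIF2 kinases, ATF4, the transcription factor whose translation rises when eIF2 is phosphorylated, and its target DDIT3 each carried 1 peak in every list. PPP1R15B, the subunit that directs eIF2 dephosphorylation, carried 3 peaks in KO plus UV, 6 in KO minus UV, 5 in WT plus UV and 5 in WT minus UV. GCN1, which activates GCN2, carried 4 peaks in each KO list and 3 in each WT list. MTOR, the kinase that controls eIF4E through its binding proteins, carried 4 peaks in each KO list and 2 in each WT list. ETF1, the release factor, carried 3 peaks in every list, and GSPT1, its GTPase partner, carried 1 peak in KO plus UV, 0 in KO minus UV, 1 in WT plus UV and 0 in WT minus UV.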

How the data were processed

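The deposited files hold, per the labels, 1 peak list for each condition, and their values are positions, a unit of their own that is neither a count, a signal nor a score. Per the submitters' processing notes, reads were aligned with TopHat2 2.0.14 and the build was hg38. For the peak caller, its threshold, the handling of replicates and of reads shared by similar transcripts, the sources used here give nothing. Positions were read as bases along the transcript with both ends included. Reads of 50 bases came from 12 IP and 12 input libraries, and the depth behind a peak is unknown.

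Accessions of the 9674 listed transcripts were matched to a RefSeq gene table (GRCh38.p14), which named 9563 of them (98.9%), and 111 stayed unnamed and out of the gene counts. Genes were compared by presence of a peak, and peaks by an overlap of at least 1 base on the same transcript. Overlapping peaks of all lists were joined into regions. Shares carry 95% Wilson intervals for counting error alone. Start sequences came from the RefSeq promoter table of the same build, taking the outermost entry for the 17 genes with more than 1. Python 3.11.15, SciPy 1.17.1 and Matplotlib 3.10.9 were used, and overlaps were checked on simulated peaks of known position. Genes were described by role, with values for the subunits of the named complexes and the eIF2 kinases, for genes marked in 1 list, missing from 1 list or split by genotype or UV, and for the 10 with the greatest total peak length. Values of 2 synthetase genes that the counts include are not reported here. The genes and lists were chosen with earlier results of these data known. Alternatives required an overlap of 50% of the shorter peak, joined peaks within 100 bases, kept peaks of at least 150 bases, left out copy-numbered transcripts, or left out regulators and the readthrough gene.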

Additional observations from a re-analysis of the deposited data

Results flagged for a closer look

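The genes encoding the eEF1A isoforms differed between genotypes in how the presence of a peak went with UV. EEF1A1 held 2 peaks in all, 1 in KO plus UV, 0 in KO minus UV, 0 in WT plus UV and 1 in WT minus UV. EEF1A2 also held 2 peaks in all, 0 in KO plus UV, 1 in KO minus UV, 1 in WT plus UV and 0 in WT minus UV. Of all genes, 0.701% had the EEF1A1 pattern and 3.82% the EEF1A2 pattern. The pair was picked by a rule applied to these same counts. With 1 list for each condition the difference between genotypes was not tested. Both EEF1A1 peaks had the smallest width in the lists, 100 bases.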

How the results depend on the processing

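No paired analysis was possible because each condition has 1 deposited list over all of its libraries. For the same reason no library could be left out. Of 67 alternative values for 17 results, 59 stayed within 1.5 times the main count or within its counting interval and 8 did not. Keeping only peaks of at least 150 bases retained 72 of 113 peaks in KO plus UV, 87 of 127 in KO minus UV, 101 of 126 in WT plus UV and 85 of 118 in WT minus UV on these genes. The kept shares were 63.7%, 68.5%, 80.2% and 72.0% in these lists, against 71.4%, 77.0%, 79.6% and 77.0% of all peaks. The peaks without an overlap then made up 29.7% for WT plus UV against WT minus UV (32.5% over all transcripts), 25.0% for KO plus UV against KO minus UV (23.5%) and 36.8% for KO minus UV against KO plus UV (51.2%). They made up 30.6% for WT minus UV against KO minus UV (34.2%) and 40.6% for WT plus UV against KO plus UV (55.4%). In that setting 29 genes, not 47, held a peak in every list (30.9% of all genes did), and 15, not 9, held one in WT minus UV and none in KO minus UV (16.0% of all genes did). With regulators and the readthrough gene left out, the last count was 5 of 74. Fewer peaks and fewer genes enter these settings by construction. Requiring 50% overlap, joining peaks within 100 bases or leaving out copy-numbered transcripts moved none of the results run under them. Copy-numbered transcripts belonged to 2 of the 85 genes, so leaving them out could change the values little.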
